A study of Mus musculus with 8 samples.

Results

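Keratin 5 (Krt5), Krt14, Krt15 and the transcription factor p63 (Trp63), which mark basal epithelial cells, and Krt7, Krt8, Krt18 and Krt19, the keratins of simple epithelia, were followed in RNA-seq of whole mouse lung. They were taken by gene symbol from a table of 25965 genes, and all 8 were found there. Lungs came from Wfdc2 +/+ and Wfdc2 GFP/GFP animals shortly before birth (embryonic stage E18.5) or after it (postnatal stage P1.5). Each of the 4 groups had 2 libraries, and whether each came from a single animal is not given in the sources used here. Wfdc2 encodes a secreted protease inhibitor. In the GFP allele an IRES-EGFP cassette takes the place of part of the first exon and all of the next one, in every cell of the animal. The line was made in TT2 embryonic stem cells aggregated with ICR morulae, the selection marker was removed by a cross to CAG-Cre mice, and the controls were littermates.

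Keratins build the intermediate filaments of epithelial cells from pairs of an acidic (type I) and a basic (type II) chain. KRT5 pairs with KRT14 in the basal cells of stratified and pseudostratified epithelia, where p63 maintains the cells, and in mouse lung these cells sit mainly in the trachea and the largest airways. KRT8 pairs with KRT18 in simple epithelia, KRT7 and KRT19 accompany them in airway, alveolar and mesothelial cells, and KRT8 marks the cells that pass from the type II to the type I alveolar state.

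On mm10, the type II keratin genes lie on chromosome 15, with Krt7 (101411043 to 101430313, + strand), Krt5 (101707070 to 101712891, − strand) and Krt8 (101996711 to 102004342, − strand) in the cluster. Krt18 (102028216 to 102032026, + strand) is the type I gene beside Krt8. The other type I genes lie on chromosome 11, all on the − strand: Krt15 (100131758 to 100135928), Krt19 (100140810 to 100148665) and Krt14 (100203162 to 100207548). Trp63 (25683763 to 25892102, + strand) is on chromosome 16 and covers 24.8 times the length of its exons. Exons of 3 members overlap those of another annotated gene, Gm44323 at Krt5, Gm671 at Krt7 and Gm36026 at Krt8, and their reads could not be told apart here.

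The 100 bases before the RefSeq start (GRCm38.p6) are shown for the 5 members with an entry, because Krt5 and Krt14 encode partner chains, as do Krt8 and Krt18, and Krt7 had levels that ran with those of Krt8 and Krt18. The RefSeq start is that of the deposited gene for Krt8 and Krt18 and differs from it for Krt5, Krt14 and Krt7, and the windows of Krt14 and Krt7 lie inside the gene spans given above. Capitals mark matches on either strand to 5 motifs: the TATA box written TATAAA, the Sp1 box written GGGCGG, the grainyhead site written AACCGGTT, the AP-1 site written TGANTCA, and the p63 site, searched as the 10 bases of its single consensus unit. No match overlapped another.
Krt5: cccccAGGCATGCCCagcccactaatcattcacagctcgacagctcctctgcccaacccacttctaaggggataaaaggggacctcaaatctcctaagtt
Krt14: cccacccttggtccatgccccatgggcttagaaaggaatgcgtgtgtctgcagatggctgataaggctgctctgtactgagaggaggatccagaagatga
Krt7: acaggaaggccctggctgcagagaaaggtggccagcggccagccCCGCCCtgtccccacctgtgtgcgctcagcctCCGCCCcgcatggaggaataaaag
Krt8: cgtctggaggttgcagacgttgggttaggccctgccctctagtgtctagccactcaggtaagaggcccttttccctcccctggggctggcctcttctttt
Krt18: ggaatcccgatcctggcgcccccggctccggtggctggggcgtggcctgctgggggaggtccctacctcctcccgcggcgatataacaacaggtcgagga

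In mm10 coordinates these windows are chr15:101712906-101713005 (−) for Krt5, chr11:100206031-100206130 (−) for Krt14, chr15:101412303-101412402 (+) for Krt7, chr15:102004343-102004442 (−) for Krt8 and chr15:102028116-102028215 (+) for Krt18. A p63 motif began 95 bases before the start of Krt5, and such a match was present in 2.56% of 32851 windows of the same kind. Sp1 boxes began 56 and 24 bases before the start of Krt7, against 24.7% of windows with at least 1. The windows of Krt14, Krt8 and Krt18 held none of the 5 motifs, and the TATA box (5.56% of windows), the AP-1 site (2.73%) and the grainyhead site (0.0365%) matched in none of the windows shown.

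Total reads ran from 19457646 to 37209332 per library. The targeted gene followed the labels, with 8038 to 32845 Wfdc2 reads in the Wfdc2 +/+ libraries and 0 to 12 in the Wfdc2 GFP/GFP libraries. Xist reads were 4121 to 90980 in the replicate 1 libraries and 1 to 13 in the replicate 2 libraries. Reads of the Y-linked gene Ddx3y were 0 to 3 in replicate 1 and 972 to 2175 in replicate 2. By these reads replicate 1 was female and replicate 2 male in every group. Sex therefore cannot be told apart from other differences between the 2 libraries of a group. Lung epithelium was present in every library, with the summed level of 8 type II alveolar markers between 2284 and 20839 RPKM, where RPKM is reads scaled to the library total and to gene length in kilobases. Some libraries stood apart in genes relevant here. P1.5 Wfdc2 +/+ replicate 1 had the highest Krt19 reads, 34423 against 6060 to 17956 in the other 7 libraries, and the lowest Krt5 reads, 5 against 14 to 138. Of the genes listed for myoepithelium, Acta2 had 765 reads there against 6267 to 11441, and Cnn1 199 against 149 to 827. P1.5 Wfdc2 +/+ replicate 2 held 1092 Krt13 and 930 Krt4 reads, keratins of stratified squamous epithelium, against 11 to 57 and 34 to 114 in the other 7 libraries. E18.5 Wfdc2 GFP/GFP replicate 1 had 148 reads of Aire, a gene of the thymic epithelium, against 0 to 6 elsewhere. Among the other thymic genes listed, Ccl25 had 1073 reads there against 108 to 288 and Prss16 34 against 7 to 26. Foxn1 had 0 against 0 to 6, Psmb11 16 against 0 to 16 and Ly75 217 against 39 to 253. The laminin gene Lama3 had 22068 reads in the same library against 442 to 6220. That library was also the lowest E18.5 library in the summed levels of 11 of the 14 gene lists used here, with type II alveolar markers at 2284 RPKM against 4964 to 6377 in the other E18.5 libraries, type I alveolar markers at 307.2 against 786.9 to 925.4, club cell markers at 304.7 against 951.0 to 1212 and pan-epithelial genes at 90.8 against 94.5 to 133.3. In the mean log2 level of the pan-epithelial genes it was not the lowest, at 1.62 against 1.49 and 1.64 in Wfdc2 +/+ and 1.89 in the other mutant library. Cdh1, Epcam, Esrp1, Esrp2 and Grhl2 had their highest E18.5 level in it. Elf3, Spint1, Spint2, St14, Prss8, Cldn7 and Rab25 had their lowest there, and the rest lay between.

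Simple keratins were abundant and the basal genes, apart from Krt15, gave few reads, from 2 (Trp63) to 138 (Krt5) per library. To compare genes, reads were divided by the length of annotated exons and scaled to the library total (called the exon level from here on). In E18.5 Wfdc2 +/+ lungs the exon level was 269.8 ± 19.6 (SD, n = 2) for Krt19, 223.5 ± 9.25 for Krt8, 150.8 ± 11.3 for Krt18 and 57.3 ± 8.50 for Krt7. Krt15 followed at 35.7 ± 2.58, and Krt5 at 0.623 ± 0.241, Krt14 at 0.317 ± 0.145 and Trp63 at 0.123 ± 0.0659 were far lower. Between Krt15 and Krt5, the next gene down, lay a 57.4-fold gap.

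The order was the same in E18.5 Wfdc2 GFP/GFP lungs, where the ranges of Krt19 and Krt8, of Krt8 and Krt18, of Krt7 and Krt15 and of Krt14 and Trp63 overlapped. Per kilobase of whole gene span, Krt18 came before Krt19 and Krt8 in that group, and in the other groups the order did not depend on the length used. In P1.5 Wfdc2 +/+ lungs the order began with Krt19, Krt18, Krt8 and Krt7, and each of these overlapped the next. In P1.5 Wfdc2 GFP/GFP lungs Krt18 (360.7 ± 0.975), Krt8 (357.3 ± 20.1) and Krt19 (335.7 ± 116) had overlapping ranges and stood above Krt7 (137.1 ± 25.2), and Krt14 (1.21 ± 0.306) stood above Krt5 (0.531 ± 0.443). Krt15 came after the 4 simple keratins and Trp63 last in all 4 groups.

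**Figure D1:**
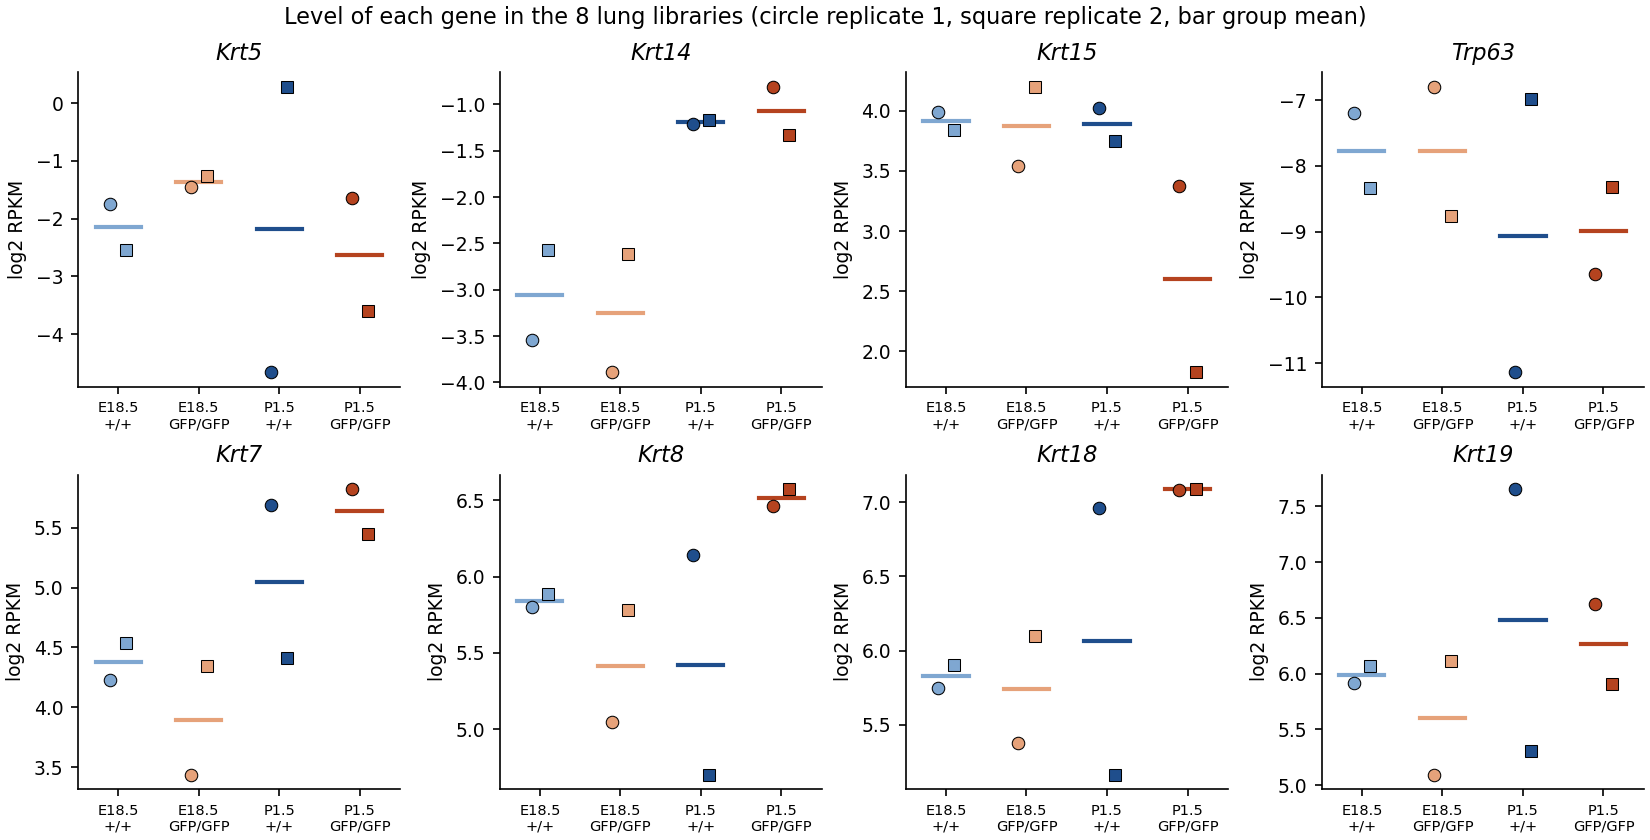
Deposited log2 RPKM of the 8 genes in each of the 8 libraries, by stage and Wfdc2 genotype (circles replicate 1, squares replicate 2, bars the mean of 2 libraries; each gene has its own axis). The 4 P1.5 libraries lie above the 4 E18.5 libraries for Krt14, and the 2 P1.5 Wfdc2 +/+ libraries are far apart for Krt5, Trp63, Krt19 and Krt18.

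Krt5, the type II keratin of basal cells, gave 60 and 31 reads in the E18.5 Wfdc2 +/+ libraries (replicate 1, then replicate 2), 79 and 71 in E18.5 Wfdc2 GFP/GFP, 5 and 138 in P1.5 Wfdc2 +/+ and 43 and 14 in P1.5 Wfdc2 GFP/GFP. The 2 P1.5 Wfdc2 +/+ libraries held both the lowest and the highest value of all 8, and they were 4.94 log2 units apart, against a median gap of 0.80 over all genes tested in that group. The fold change of Wfdc2 GFP/GFP over Wfdc2 +/+ at P1.5 was −0.44 on the log2 scale (SE 1.41, adjusted p = 0.922, limma with Benjamini-Hochberg adjustment over 15627 genes). Without P1.5 Wfdc2 +/+ replicate 2 it was 2.03, and without P1.5 Wfdc2 GFP/GFP replicate 2 it was 0.54. At E18.5 both mutant libraries were above both controls, by 0.79 on the log2 scale (SE 1.41, limma adjusted p = 0.9998), and by 0.38 to 1.19 when a library was left out.

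In P1.5 Wfdc2 +/+ replicate 2, the library with 138 Krt5 reads, other genes of stratified epithelium were high as well, and some were not. Krt6a, which stratified epithelia make under stress and in the mouth and oesophagus, had 82 reads there and 0 to 4 in the other 7 libraries. Sprr3, a cornified envelope gene, had 14 reads against 0 or 1, and Krt23, another type I keratin, had 366 against 70 to 163. The cornified envelope genes Ivl (12 reads against 57) and Lor (9 against 61), with Krtdap (9 against 46) and Sbsn (512 against 1336), were lower in it than in the other P1.5 Wfdc2 +/+ library. The summed level of 12 squamous markers was 30.1 RPKM in that library and 17.9 in the other P1.5 Wfdc2 +/+ library, against 11.8 to 12.4 in P1.5 Wfdc2 GFP/GFP and 3.36 to 6.17 at E18.5. In that library 11 of the 12 markers exceeded 3 reads, and 8 to 10 did so in the other 7. The summed level of 43 other keratin genes was 26.3 RPKM there against 2.17 to 4.92 in the rest. Their part in the Krt5 values was not tested.

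**Figure D2:**
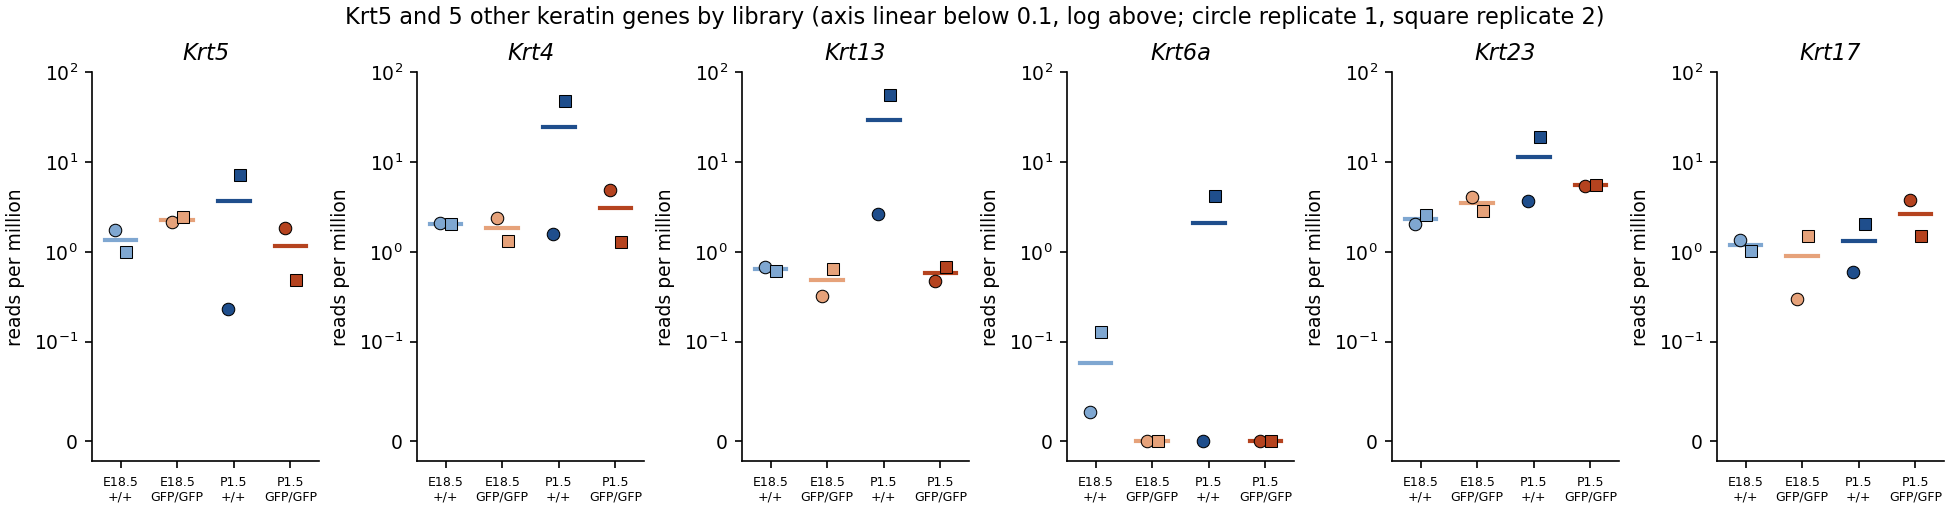
Reads scaled to the library total (RPM) of Krt5, Krt4, Krt13, Krt6a, Krt23 and Krt17 in the 8 libraries (axis linear below 0.1 and logarithmic above; circles replicate 1, squares replicate 2, bars the mean of 2 libraries). For Krt5, Krt4, Krt13, Krt6a and Krt23 the highest point is P1.5 Wfdc2 +/+ replicate 2, and for Krt17 it is P1.5 Wfdc2 GFP/GFP replicate 1 with 87 reads.

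Trp63, the basal cell transcription factor, gave 49 and 20 reads in E18.5 Wfdc2 +/+, 70 and 14 in E18.5 Wfdc2 GFP/GFP, 2 and 32 in P1.5 Wfdc2 +/+ and 6 and 19 in P1.5 Wfdc2 GFP/GFP. All 4 groups overlapped. Reads were counted over the whole gene, introns included, and its mean of 0.00424 RPKM was under the 0.05 RPKM asked of a gene to enter the tests. Without that filter Trp63 differed between genotypes by 0.08 on the log2 scale at P1.5 (SE 1.40, limma adjusted p = 0.978) and by −0.01 at E18.5 (SE 1.40, limma adjusted p = 0.999).

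Krt14, the type I partner of KRT5, was higher after birth in both genotypes. It gave 13 and 23 reads in E18.5 Wfdc2 +/+, 11 and 21 in E18.5 Wfdc2 GFP/GFP, 41 and 38 in P1.5 Wfdc2 +/+ and 58 and 51 in P1.5 Wfdc2 GFP/GFP. Every P1.5 library was above every E18.5 library once scaled to the library total, an order in that direction shown by 7.28% of all genes tested. From E18.5 to P1.5 the level differed by 1.86 on the log2 scale in Wfdc2 +/+ (SE 0.56, limma adjusted p = 0.301) and by 2.18 in Wfdc2 GFP/GFP (SE 0.56, limma adjusted p = 0.0579). The mean of the stage difference over both genotypes, a comparison added after these values were seen, was 2.02 (SE 0.40, limma adjusted p = 0.0394), a 4.06-fold rise with a 95% interval of 2.14 to 7.70. Of the 7 members tested, Krt14 was the 1 that passed in this comparison, in which 5.14% of all genes passed and 2.58% did so with a rise. The call was lost in voom on the reads (adjusted p = 0.0502), without the filter on low genes (adjusted p = 0.0608), with the replicate number as a block and on leaving out any 1 library other than E18.5 Wfdc2 GFP/GFP replicate 2 or P1.5 Wfdc2 +/+ replicate 2. In each of these fits the difference stayed between 1.70 and 2.26 on the log2 scale.

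Between genotypes Krt14 differed by 0.12 on the log2 scale at P1.5 (SE 0.56, limma adjusted p = 0.947), with a 95% interval of −1.18 to 1.43, and by −0.20 at E18.5 (SE 0.56, limma adjusted p = 0.9998), which turned to 0.44 without E18.5 Wfdc2 GFP/GFP replicate 1. Levels of other cell types moved with stage too. The 12 squamous markers summed to 3.36 to 6.17 RPKM at E18.5 and 11.8 to 30.1 at P1.5, and the 8 mesothelial markers to 49.1 to 120.1 and 185.7 to 359.0 RPKM. Their part in the Krt14 difference was not tested. In whole-lung RNA, more cells of a type and more RNA per cell cannot be told apart.

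Krt15, a type I keratin of basal cells, was by far the most abundant of the basal genes, with 2285 and 1868 reads in E18.5 Wfdc2 +/+, 1804 and 2246 in E18.5 Wfdc2 GFP/GFP, 1477 and 1089 in P1.5 Wfdc2 +/+ and 1004 and 432 in P1.5 Wfdc2 GFP/GFP. On the log2 RPKM scale 6 libraries lay between 3.54 and 4.20, and the 2 P1.5 Wfdc2 GFP/GFP libraries lay below them at 3.38 and 1.82. The log2 fold change at P1.5 was −1.29 (SE 0.50, 95% interval −2.45 to −0.12, limma unadjusted p = 0.0347, adjusted p = 0.417). Leaving out P1.5 Wfdc2 GFP/GFP replicate 2 brought it to −0.51 and leaving out replicate 1 of that group to −2.06. At E18.5 the difference was −0.05 (SE 0.50, limma adjusted p = 0.9998), and 0.28 without Wfdc2 GFP/GFP replicate 1. The difference between the 2 genotype effects was −1.24 (SE 0.71, limma adjusted p = 0.613). Over the 8 libraries the log2 level of Krt15 had a Pearson r of 0.290 with Krt5, −0.327 with Krt14 and −0.0835 with Trp63. Which cells the Krt15 reads came from was not tested.

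At P1.5, 3 of the 8 members had groups that did not overlap, Krt15 with lower and Krt8 and Krt18 with higher values in Wfdc2 GFP/GFP, against 39.4% of all genes tested, of which 12.6% of all were higher and 26.9% lower. None of the 7 members tested passed the limma test in this comparison, in which 0.0128% of all genes passed, and 1, Krt15, had an unadjusted p under 0.05 (10.9% of all genes). The median log2 fold change was 0.12 over the 7 members and −0.20 over all genes tested.

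Krt8, the type II keratin of simple epithelia, had lower values in Wfdc2 GFP/GFP before birth and higher values after it. It gave 14626 and 14039 reads in E18.5 Wfdc2 +/+, 9381 and 12298 in E18.5 Wfdc2 GFP/GFP, 11678 and 3867 in P1.5 Wfdc2 +/+ and 15563 and 21283 in P1.5 Wfdc2 GFP/GFP. The log2 levels were 5.05 and 5.78 in the E18.5 mutants, and 5.80 and 5.88 in their controls. They were 6.46 and 6.57 in the P1.5 mutants, and 6.14 and 4.70 in their controls. The groups did not overlap at either stage, a pattern in opposite directions shared by 9.92% of all genes tested. The log2 fold change was −0.43 at E18.5 (SE 0.49, limma adjusted p = 0.9998) and 1.10 at P1.5 (SE 0.49, limma adjusted p = 0.471), and the difference between them was 1.52 (SE 0.70, limma adjusted p = 0.520). Without P1.5 Wfdc2 +/+ replicate 2 the P1.5 value was 0.38, and without replicate 1 it was 1.81. Without E18.5 Wfdc2 GFP/GFP replicate 1, the library with the low alveolar and club cell marker sums, the E18.5 value was −0.06. The part of those markers in the E18.5 keratin values was not tested.

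Krt18, the type I partner of KRT8, gave 7066 and 7112 reads in E18.5 Wfdc2 +/+, 5910 and 7633 in E18.5 Wfdc2 GFP/GFP, 10331 and 2661 in P1.5 Wfdc2 +/+ and 11982 and 15192 in P1.5 Wfdc2 GFP/GFP. The P1.5 mutant libraries were nearly equal in log2 RPKM, at 7.08 and 7.09, and the control libraries lay below them at 6.96 and 5.17. The log2 fold change at P1.5 was 1.02 (SE 0.57, limma adjusted p = 0.558), and it was 0.12 without P1.5 Wfdc2 +/+ replicate 2. At E18.5 it was −0.09 (SE 0.57, limma adjusted p = 0.9998), and it turned to 0.27 without Wfdc2 GFP/GFP replicate 1.

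Krt7, a type II simple keratin, gave 12456 and 13917 reads in E18.5 Wfdc2 +/+, 7772 and 11483 in E18.5 Wfdc2 GFP/GFP, 21562 and 7983 in P1.5 Wfdc2 +/+ and 25294 and 24611 in P1.5 Wfdc2 GFP/GFP. The genotypes overlapped at both stages, with log2 fold changes of −0.49 at E18.5 (SE 0.49, limma adjusted p = 0.9998) and 0.59 at P1.5 (SE 0.49, limma adjusted p = 0.716). Without P1.5 Wfdc2 +/+ replicate 2 the P1.5 value was −0.05, and without E18.5 Wfdc2 GFP/GFP replicate 1 the E18.5 value was −0.034.

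Krt19, the smallest type I keratin, gave 16349 and 16403 reads in E18.5 Wfdc2 +/+, 9985 and 15874 in E18.5 Wfdc2 GFP/GFP, 34423 and 6060 in P1.5 Wfdc2 +/+ and 17956 and 13756 in P1.5 Wfdc2 GFP/GFP. The P1.5 Wfdc2 +/+ libraries were 2.35 log2 units apart and enclosed both mutant libraries. The log2 fold change was −0.22 at P1.5 (SE 0.73, limma adjusted p = 0.925), 0.95 without P1.5 Wfdc2 +/+ replicate 1 and −1.39 without replicate 2. At E18.5 it was −0.39 (SE 0.73, limma adjusted p = 0.9998) and turned to 0.12 without Wfdc2 GFP/GFP replicate 1, the library with the lowest E18.5 level of all 4 simple keratins.

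At E18.5, Krt5 (higher) and Krt8 (lower) were the members whose genotypes did not overlap, 2 of 8 against 36.0% of all genes tested (26.5% higher and 9.46% lower). None of the 7 tested passed (0.0192% of all genes passed) and none had an unadjusted p under 0.05 (4.37% of all genes). The median log2 fold change was −0.20 over the 7 members and 0.09 over all genes. The genotype effect differed between stages for none of the 7 members and none of all 15627 genes in limma, and 0 members had an unadjusted p under 0.05 for this difference, against 10.2% of all genes.

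**Figure D3:**
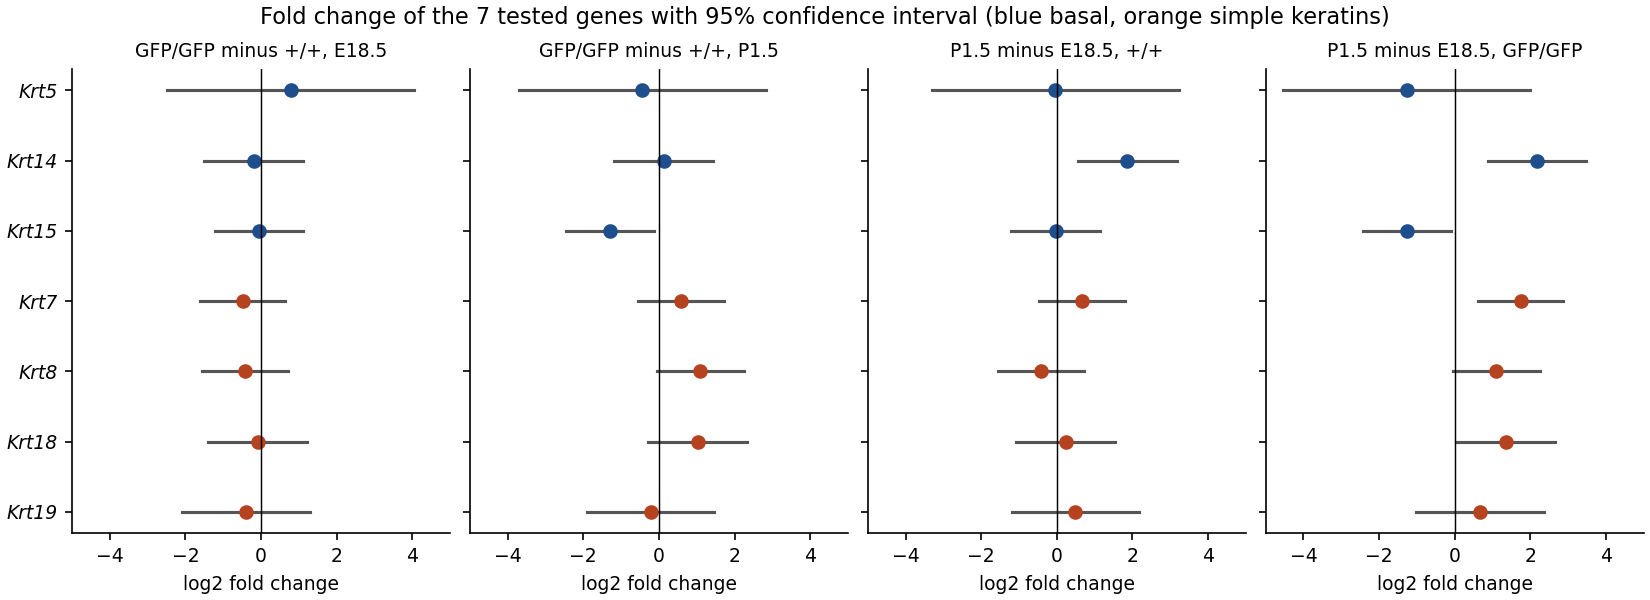
Log2 fold change (points) and its 95% confidence interval (lines) for the 7 tested genes, from limma on 8 libraries, for genotype at E18.5 and P1.5 (Wfdc2 GFP/GFP minus +/+) and for stage in each genotype (P1.5 minus E18.5). Blue points are basal and orange points simple keratins. Krt15 at P1.5 is −1.29 with an interval of −2.45 to −0.12, and Krt14 lies to the right of 0 in both stage panels.

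P1.5 Wfdc2 +/+ replicate 2, lowest of the P1.5 libraries in all 4 simple keratins, was also lowest of them in the summed levels of 8 of the 14 lists. Type II alveolar markers summed to 8253 RPKM in it and 17425 in the other control, against 15089 to 20839 in P1.5 Wfdc2 GFP/GFP. Type I alveolar markers summed to 1211 and 2029 RPKM in the controls and 1517 to 2221 in the mutants, and mesothelial markers to 185.7 and 359.0 in the controls and 197.3 to 218.4 in the mutants. Such sums weigh abundant genes most. Gene by gene, Sftpc (log2 12.90 against 14.06) and Napsa were lower in it than in the other control. The other type II markers, among them Sftpb (7.76 against 6.14), were higher in it. Ager, Hopx and Aqp5 were the type I markers lower in it, and Msln and Rspo1 the mesothelial ones. All other type I and mesothelial markers were higher in it than in the other control. Club cell markers summed to 2706 RPKM in it and 6330 in the other control, against 3655 to 4227 in the mutants, and 15 pan-epithelial genes to 89.5 in it and 172.6 in the other control, against 140.9 to 146.0 in the mutants. Ciliated, neuroendocrine and transitional alveolar genes were the other lists lowest in it. Their part in the keratin values was not tested. All 8 type II, type I and mesothelial markers exceeded 3 reads in every library. The mean log2 level of 15 pan-epithelial genes, among them Cdh1 and Epcam, was 1.62 and 1.32 in P1.5 Wfdc2 +/+ and 1.49 and 1.61 in P1.5 Wfdc2 GFP/GFP. With each library centred on these genes, none of the 7 members passed between genotypes at either stage, and Krt8 at P1.5 differed by 1.02 on the log2 scale (SE 0.39, limma adjusted p = 0.488).

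The next question was how the keratins stood before and after birth in each genotype. In Wfdc2 GFP/GFP, Krt7, Krt8 and Krt18 were above both E18.5 libraries in both P1.5 libraries, by 1.74 (SE 0.49, adjusted p = 0.0659), 1.10 (SE 0.49, adjusted p = 0.150) and 1.35 (SE 0.57, adjusted p = 0.133) on the log2 scale in limma. Krt15 was below by 1.27 (SE 0.50, limma adjusted p = 0.119) and Krt5 by 1.27 (SE 1.41, limma adjusted p = 0.540). Leaving out P1.5 Wfdc2 GFP/GFP replicate 1 brought these to −2.05 and −2.25, and leaving out replicate 2 of that group to −0.49 and −0.29. With Krt14, 6 of 8 members did not overlap, against 67.2% of all genes tested (18.7% higher and 48.5% lower). None of the 7 passed, where 4.55% of all genes did (1.61% higher and 2.94% lower; 849 genes higher and 430 lower with median centring), and 4 had an unadjusted p under 0.05 (35.6% of all genes). The median was 1.10 over the 7 members and −0.46 over all genes.

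In Wfdc2 +/+ lungs, 1 of 8 members, Krt14, did not overlap between stages, against 55.6% of all genes (27.4% higher), and none of the 7 passed (0.0576% of all genes). Krt7 differed by 0.67, Krt8 by −0.42, Krt18 by 0.24 and Krt19 by 0.49 on the log2 scale, with limma adjusted p between 0.478 and 0.833. Without P1.5 Wfdc2 +/+ replicate 1, Krt8, Krt18 and Krt19 gave −1.14, −0.66 and −0.68, and without replicate 2 they gave 0.30, 1.14 and 1.67. As given above, the test of the difference between the genotypes passed for none of these genes. Over both genotypes, Krt5, Krt7, Krt8, Krt18 and Krt19 gave −1.89, 1.52, 0.70, 1.24 and 1.16 without P1.5 Wfdc2 +/+ replicate 2. The same genes gave 0.58, 0.89, −0.018, 0.34 and −0.010 without P1.5 Wfdc2 +/+ replicate 1.

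Ratios of keratin mRNAs within a library do not depend on how libraries are scaled to each other. The exon level of Krt19 was 1.79 and 1.79 times that of Krt18 in E18.5 Wfdc2 +/+, 1.31 and 1.61 times in E18.5 Wfdc2 GFP/GFP, 2.58 and 1.76 times in P1.5 Wfdc2 +/+ and 1.16 and 0.701 times in P1.5 Wfdc2 GFP/GFP. All 4 mutant libraries were below all 4 controls, and the mean log2 difference within stage was −0.77, between −0.95 and −0.59 when any library was left out. How often ratios of other gene pairs separate the genotypes in this way was not counted. Permuting genotype within stage gave an exact two-sided p of 0.0556, the smallest that 36 arrangements allow, and 0.148 after Benjamini-Hochberg adjustment over 8 such tests of 4 ratios, which were chosen with the levels known.

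The ratio of Krt8 to Krt18 was 1.16 to 1.52 at E18.5 and 0.830 to 1.07 at P1.5, and that of Krt7 to Krt8 was 0.230 to 0.275 at E18.5 and 0.321 to 0.573 at P1.5. Neither ratio overlapped between stages. How often ratios of other gene pairs do so was not counted, and 20.9% of single genes tested did not overlap between the stages over both genotypes. The mean log2 differences within genotype were −0.45 and 0.86, each with an exact two-sided permutation p of 0.0556 (adjusted p = 0.148). The ratio of Krt15 to Krt19 had its lowest value, 0.0330, in P1.5 Wfdc2 GFP/GFP replicate 2 and its highest, 0.190, in replicate 1 of the E18.5 mutants, and overlapped between stages and between genotypes. The other 5 tests gave adjusted p between 0.222 and 0.778 in the same exact permutation test. Krt15 made up 0.749% to 6.90% of the summed exon level of the 7 keratins, and Krt5 with Krt14 between 0.0718% and 0.946%, with the highest share of both in P1.5 Wfdc2 +/+ replicate 2.

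**Figure D4:**
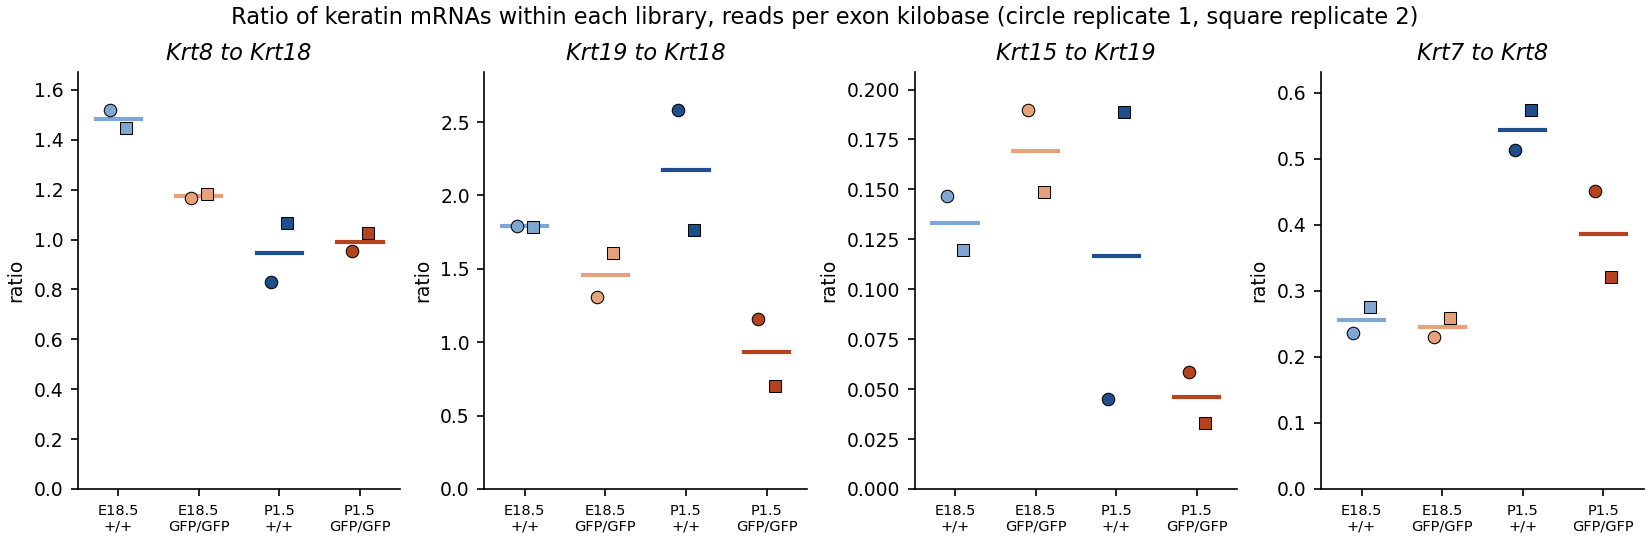
Ratio of exon levels of 2 keratins within each of the 8 libraries (circles replicate 1, squares replicate 2, bars the mean of 2 libraries; axes start at 0). Krt19 to Krt18 is 1.76 to 2.58 in the 4 Wfdc2 +/+ libraries and 0.701 to 1.61 in the 4 Wfdc2 GFP/GFP libraries, and Krt7 to Krt8 is higher in all P1.5 libraries than in all E18.5 libraries.

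Across the 8 libraries, levels of Krt8 and Krt18 ran together (Pearson r = 0.930), as did those of Krt7 and Krt18 (r = 0.899) and of Krt7 and Krt8 (r = 0.775). The partner genes Krt5 and Krt14 did not (r = −0.200), and Trp63 ran against Krt19 (r = −0.963). Trp63 gave 2 to 70 reads per library, introns included, and was under the filter. Its lowest library, P1.5 Wfdc2 +/+ replicate 1, was the highest in Krt19. These correlations are descriptions over 8 libraries that share stage, genotype and depth. By the same measure the gene nearest to the mean of the 4 simple keratins was Muc1 (r = 0.973). The nearest were Islr to Krt5 (r = 0.954), Bpifb5 to Krt14 (r = 0.987), 1700026D08Rik to Krt15 (r = 0.987), Slitrk6 to Trp63 (r = 0.985), Cdc34 to Krt7 (r = 0.996), Tspan1 to Krt8 (r = 0.961), Phlda2 to Krt18 (r = 0.981) and Ddt to Krt19 (r = 0.992).

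Of 20 other genes of basal cells or p63 targets, 19 were tested and none passed between genotypes at either stage. In Wfdc2 GFP/GFP, 2 rose and 2 fell from E18.5 to P1.5 in limma: the water channel gene Aqp3 by 3.08 (SE 0.41, adjusted p = 0.0210) and the adhesion gene Icam1 by 1.55 (SE 0.34, adjusted p = 0.0490) on the log2 scale, and Snai2, a repressor of epithelial genes, fell by 2.13 (SE 0.44, adjusted p = 0.0459) and Lama3 fell by 4.21 (SE 0.83, adjusted p = 0.0432). These 4 of 19 stand against 1.61% of all genes called higher and 2.94% called lower in this comparison. Lama3 was highest in E18.5 Wfdc2 GFP/GFP replicate 1, the library with the Aire reads. The list's median was −0.58, against −0.46 over all genes. In Wfdc2 +/+ none of the 19 passed. Of 10 desmosome and keratin linker genes found, among them Dsp (desmoplakin), 8 were tested and none passed in any comparison, with a median of −0.46 between genotypes at P1.5.

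Of 15 genes known from the transitional alveolar state, to which KRT8-high cells belong, none passed between genotypes. At P1.5, 5 had an unadjusted p under 0.05 and higher values in Wfdc2 GFP/GFP, and Ctgf had lower ones, against 3.61% of all genes with a higher and 7.33% with a lower value at that p, and the list's median was 0.55 against −0.20 over all genes. Claudin 4 (Cldn4) gave 905 and 340 reads in P1.5 Wfdc2 +/+ and 5241 and 6581 in P1.5 Wfdc2 GFP/GFP, a difference of 3.06 on the log2 scale (SE 0.51, limma adjusted p = 0.152). Stratifin (Sfn), also among the p63 targets, differed by 1.60 (SE 0.51, limma adjusted p = 0.344). Of the 15 genes, 11 had a log2 fold change above 0 at P1.5, as did 38.8% of all genes tested. Those below 0 were Ctgf, Ndrg1, Cdkn1a and Nupr1. In Wfdc2 GFP/GFP, Cldn4 rose from E18.5 to P1.5 by 3.19 (SE 0.51, limma adjusted p = 0.0331) and Ndrg1 fell by 2.29 (SE 0.43, limma adjusted p = 0.0427).

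Most of the 43 other keratin genes were silent or nearly so: 12 to 15 exceeded 3 reads in a given library, and 11 entered the tests. None passed between genotypes. From E18.5 to P1.5 in Wfdc2 GFP/GFP, Krt79 rose by 2.40 on the log2 scale (SE 0.43, limma adjusted p = 0.0390) and Krt20, a keratin of gut and urothelium, by 5.18 (SE 0.81, limma adjusted p = 0.0320), 2 of 11 against 1.61% of all genes called higher. Krt79 gave 11 to 16 reads in the E18.5 libraries and 43 to 71 in the P1.5 libraries of both genotypes. Krt20 gave 4 and 12 reads in E18.5 Wfdc2 +/+, 0 and 2 in E18.5 Wfdc2 GFP/GFP, 11 and 5 in P1.5 Wfdc2 +/+ and 46 and 32 in P1.5 Wfdc2 GFP/GFP. Its fold change rests on an E18.5 mutant level at or under the limit of 3 reads, and the Wfdc2 +/+ libraries overlapped between stages. Krt17, a keratin of basal cells, ran from 11 to 87 reads without a stage or genotype passing the test.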

How the data were processed

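The authors trimmed reads with Trim Galore 0.4.0, mapped them to mm10 with TopHat2 2.1.1 and quantified genes in SeqMonk. Whether counting used strand, and which instrument read which library, is not given in the sources used here. The deposited values are log2 RPKM per kilobase of whole gene span, with 0.9 reads entered where a gene has none. Reads were recovered from them, with 99.9% or more of values per library within 0.02 of a whole read, and 3 reads (0.0806 to 0.154 RPM) were taken as the limit of detection. Exon lengths came from GENCODE M21.

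The 15627 genes averaging 0.05 RPKM or more were fitted in limma 3.58.1 (R 4.3.3) with 4 group means, a trended prior and 4 residual degrees of freedom, with Benjamini-Hochberg adjustment and a threshold of 0.05. Contrasts were genotype at each stage, stage in each genotype and their difference. P-values measure the spread between 2 libraries per group, and an exact permutation of 2 against 2 cannot go below 0.333. The members, the 14 lists and the ratios were chosen with earlier results of these data known. All 8 members are described, the list genes named are those that passed or had values bearing on a member, and the 3 genes with the highest Pearson r were sought per member, of which the nearest is given. Other pseudocounts, filters, scalings, priors, a replicate block, voom and each library left out were tried as alternatives.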

Additional observations from a re-analysis of the deposited data

Results flagged for a closer look

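Krt8 was set apart because its genotype difference pointed opposite ways at the 2 stages. Both E18.5 Wfdc2 GFP/GFP libraries were below both controls and both P1.5 Wfdc2 GFP/GFP libraries were above both controls. At E18.5 this rests on nearly equal log2 levels, 5.784 in Wfdc2 GFP/GFP replicate 2 and 5.799 in Wfdc2 +/+ replicate 1. Groups that do not overlap and point in opposite directions were found for 9.92% of all genes tested. The genotype effect at P1.5 minus that at E18.5 was 1.52 on the log2 scale (limma adjusted p = 0.520), and it ran from 0.80 to 2.24 when a library was left out. With 2 libraries per group, no single library could be tested as an outlier.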

How the results depend on the processing

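Each group had 2 libraries, and intervals were wide. No member passed between genotypes under any setting with 2 libraries per group, with or without the replicate block. Many of the direction changes below concern differences near 0, and others do not. Without P1.5 Wfdc2 +/+ replicate 2 the genotype difference of Krt5 at P1.5 went from −0.44 to 2.03. The difference between its genotype effects then went from −1.23 to 1.25. Of 478 refits of 42 member differences under other settings, 451 kept direction and call, 15 reversed, 8 gained a call and 4 lost it. Of 336 refits without 1 library, the numbers were 287, 28, 15 and 6. The cause of these changes was not tested. Over all settings the number of all genes that passed ran from 0 to 39 for genotype at P1.5 (2 as reported), 0 to 22 at E18.5 (3), 0 to 31 for their difference (0), 0 to 2166 for stage in Wfdc2 +/+ (9), 0 to 4874 in Wfdc2 GFP/GFP (711) and 28 to 7125 over both (803). For stage in Wfdc2 GFP/GFP, 0 to 3 of the basal and p63 list rose (2 as reported) and 0 to 7 fell (2), and 0 to 8 of the transitional list rose (1).

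The labels do not tie equal replicate numbers to a litter or batch. By the Xist and Ddx3y reads the replicate number follows sex, so a replicate block is also a block for sex. Deviations of same-numbered libraries correlated between genotypes (r = 0.230 at E18.5, 0.210 at P1.5) and not between stages of a genotype (r = −0.0174 and −0.00680). With the replicate number as a block, Krt14 over both genotypes had adjusted p = 0.0912 (random, within stage) or 0.0572 (fixed term) in limma, and no other member call changed.

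Median centring took from every log2 difference a shift of −0.20 for genotype at P1.5, 0.21 at E18.5, −0.27 and −0.68 for stage in Wfdc2 +/+ and Wfdc2 GFP/GFP, and −0.47 over both. Over both genotypes it gave 1278 genes higher and 564 lower, against 2.58% higher and 2.56% lower as reported. Centring on the pan-epithelial genes and the stage difference over both genotypes were chosen after seeing the data. Per exon length, 3 members took another rank in E18.5 Wfdc2 GFP/GFP and 0 in the other groups.

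In Wfdc2 GFP/GFP the number of members that rose from E18.5 to P1.5 was 0, where 252 of all 15627 genes rose. It became 1 with a filter of 0.5 RPKM (416 of 9422 genes rose), median centring (849 of 15627), quantile normalization (377) or pan-epithelial centring (589). In a fit of the 4 libraries alone it was 2 (769). Without 1 library the log2 differences were 1.54 to 2.82 (Krt14), 1.29 to 2.20 (Krt7), 0.73 to 1.47 (Krt8) and 0.99 to 1.71 (Krt18). Over both genotypes the number was 1, where 403 of all genes rose. It became 0 without the filter (208 of 25965), in voom (328) and with the replicate block as a random (53) or a fixed term (181). With pan-epithelial centring it was 2 (994). Without 1 library the difference of Krt14 over both genotypes was 1.70 to 2.34.

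Log2 differences reversed as follows. Quantile normalization gave 0.0023 for genotype at E18.5 in Krt18, −0.094 for the difference between the genotype effects in Krt19, and, for stage, −0.23 (Krt18), −0.0098 (Krt19) and 0.13 (Krt5) in Wfdc2 +/+, −0.10 (Krt19) in Wfdc2 GFP/GFP and −0.29 (Krt8) and −0.057 (Krt19) over both. For stage in Wfdc2 +/+, Krt5 was 0.38 and 0.30 with pseudocounts of 0.1 and 1 RPKM, 0.22 with median and 0.050 with pan-epithelial centring, and Krt15 was 0.23 and 0.062 with these centrings. Over both genotypes Krt5 was 0.040 with a pseudocount of 1 RPKM.

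Leaving out 1 library gave these ranges across 0. For genotype at P1.5 they were −2.91 to 2.03 (Krt5), −0.14 to 0.38 (Krt14), −0.051 to 1.22 (Krt7) and −1.39 to 0.95 (Krt19). At E18.5 they were −0.84 to 0.44 (Krt14), −0.38 to 0.28 (Krt15), −0.45 to 0.27 (Krt18) and −0.90 to 0.12 (Krt19), lowest without E18.5 Wfdc2 GFP/GFP replicate 2 and highest without replicate 1. For the difference between these effects they were −3.70 to 1.25 (Krt5), −0.32 to 0.96 (Krt14) and −1.003 to 1.34 (Krt19). For stage in Wfdc2 +/+ they were −2.52 to 2.43 (Krt5), −0.17 to 0.11 (Krt15), −1.14 to 0.30 (Krt8), −0.66 to 1.14 (Krt18) and −0.68 to 1.67 (Krt19), and over both genotypes −1.89 to 0.58 (Krt5), −0.018 to 0.70 (Krt8) and −0.010 to 1.16 (Krt19). The genotype difference in log2 Krt15 to Krt19 ran from −0.88 to 0.15.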
